A study of Mus musculus with 12 samples.

Results

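The IGF-binding protein genes analysed here are *Igfbp2*, *Igfbp3*, *Igfbp4*, *Igfbp5*, *Igfbp6* and *Igfbp7*, 6 of the 27179 genes in the count table. They were chosen as a gene family, with earlier results of these data known. *Igfbp1*, which had 0 counts, is not among them and is listed with other genes that have an IGFBP domain. RNA-seq was performed on 12 tibialis anterior (TA) muscles of wild-type male C57BL/6N mice, which arrived at 6 to 8 weeks of age. In each of 6 mice, 1 TA received 10 μg of the empty plasmid pcDNA3 (Control) and the other received 10 μg of the same plasmid carrying the full-length human lncRNA *FRAIL1* behind a CMV promoter. Both legs were injected with hyaluronidase and electroporated, so injection and electroporation were common to both groups, and muscles were collected on day 7. The groups therefore compare 6 Control with 6 *FRAIL1* muscles, in whole muscle that holds transfected and untransfected fibers and other cells.

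IGF-binding proteins are secreted proteins that bind IGF1 and IGF2 in blood and tissue, extend their lifetime and limit their access to the IGF1 receptor. Proteases that cut the binding proteins release the ligand again, and several family members also bind cell surfaces and matrix independently of IGF. In skeletal muscle, IGF1 and IGF2 promote fiber growth, differentiation and regeneration, and *Igfbp5* is known as the family member made in abundance by differentiating muscle cells.

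*Igfbp2* (chromosome 1, 72824480 to 72852474, plus strand) and *Igfbp5* (chromosome 1, 72858065 to 72874865, minus strand) are neighbors, with 5590 bases between their ends, in the GRCm38 annotation of RefSeq. *Igfbp3* lies on chromosome 11 from 7206086 to 7215498 on the minus strand, 3539 bases from *Igfbp1*. *Igfbp4* lies on the same chromosome, from 99040005 to 99052655 on the plus strand. *Igfbp6* occupies 102144186 to 102149512 on the plus strand of chromosome 15, and *Igfbp7* occupies 77349240 to 77408045 on the minus strand of chromosome 5. Exons of *Polr2b* on the opposite strand cover 7.03% of the exonic bases of *Igfbp7*, and the strand setting of the counting is not given in the sources used here, so reads in that stretch cannot be assigned to either gene with certainty. No member had a stretch of 100 or more bases at 98% identity or more in transcripts of another gene.

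The 250 bases before the RefSeq transcription start are shown for *Igfbp4*, the member whose groups did not overlap, for *Igfbp7*, the member most correlated with it, and for *Igfbp5*, the most abundant member (GRCm38.p6, each 5′ to 3′ on the strand of its gene). Capitals mark the TATA box letters TATAAA and the GC box letters GGGCGG, searched on both strands. The windows are chr11:99040994-99041243 (plus strand), chr5:77408046-77408295 (minus strand) and chr1:72874866-72875115 (minus strand), respectively. For *Igfbp4* the start used lies within the bounds of the gene given above.
Igfbp4: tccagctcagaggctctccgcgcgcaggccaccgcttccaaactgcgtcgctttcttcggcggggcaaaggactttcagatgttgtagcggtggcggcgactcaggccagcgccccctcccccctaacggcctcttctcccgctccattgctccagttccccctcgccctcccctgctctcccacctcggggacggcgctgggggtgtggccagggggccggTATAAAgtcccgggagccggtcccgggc
Igfbp7: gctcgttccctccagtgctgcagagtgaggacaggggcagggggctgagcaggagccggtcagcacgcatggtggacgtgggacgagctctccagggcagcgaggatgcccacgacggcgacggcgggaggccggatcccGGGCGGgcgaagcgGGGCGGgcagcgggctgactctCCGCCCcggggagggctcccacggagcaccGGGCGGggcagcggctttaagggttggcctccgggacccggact
Igfbp5: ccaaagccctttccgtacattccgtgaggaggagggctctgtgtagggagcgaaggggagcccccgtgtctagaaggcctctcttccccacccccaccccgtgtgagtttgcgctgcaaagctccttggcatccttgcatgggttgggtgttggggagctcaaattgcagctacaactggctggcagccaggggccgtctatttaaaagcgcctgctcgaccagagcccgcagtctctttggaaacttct
The 3 promoters had different core letters. That of *Igfbp4* held 1 TATA box, 28 bases before the start, and no GC box. The promoter of *Igfbp7* held 4 GC boxes and no TATA box, and that of *Igfbp5* held neither. In the same 250 bases before a start, TATAAA occurred in 12.4% and GGGCGG in 32.7% of the 32851 RefSeq promoter windows. GC content of the 250 bases was 69.2% for *Igfbp4*, 74.0% for *Igfbp7* and 58.8% for *Igfbp5*, beside a median of 52.4% over all windows. Such matches describe letters and not sites in use.

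Total counts were between 44848322 and 60527385 per muscle, and 15502 genes passed the filter for low counts, all 6 members among them. Levels are given as CPM, the counts of a gene scaled to the size of its library after TMM scaling. Scaling factors lay between 0.935 and 0.983 in Control muscles and reached 1.19 in *FRAIL1* muscle 5, which also stood apart on the first principal component of all genes (59.5, with the other *FRAIL1* muscles between -5.92 and 25.8 and Control muscles between -25.9 and -11.0). For the 6 members and the called genes of the IGF system, the log2 fold change or the adjusted p is given with and without it. Calls of cell type markers are given only with *FRAIL1* muscle 5 included. Fiber markers such as *Ckm* and *Acta1* were abundant in every muscle, with a summed level of at least 131605 CPM over 10 markers. *FRAIL1* itself is a human transcript and was not measured by counts over mouse genes, so the expression of the plasmid was not checked here.

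Levels of different genes were compared as CPM per kb of exon. In Control muscles, *Igfbp5*, a binding protein that also attaches to extracellular matrix, was the most abundant at 141 ± 21.7 CPM per kb (SD, n = 6). It was followed by *Igfbp7*, a secreted protein of blood vessels that binds IGFs weakly, at 58.5 ± 5.69 CPM per kb, and by *Igfbp6*, which prefers IGF2 over IGF1, at 25.2 ± 6.37 CPM per kb. *Igfbp4*, regarded as an inhibitory binding protein, was at 10.3 ± 1.46 CPM per kb, and *Igfbp3*, the main IGF carrier of serum, at 5.52 ± 0.818 CPM per kb. *Igfbp2*, a binding protein of fetal tissues with an integrin-binding motif, was the lowest at 0.213 ± 0.0383 CPM per kb. These ranges did not overlap between any neighbors in the order, and the same order held in 6 of 6 Control muscles. Exon lengths were taken from GENCODE, while counts were made per NCBI Gene ID. The end of *Igfbp4* is 99054392 in GENCODE and 99052655 in RefSeq. Its level per kb and its place below *Igfbp6* may therefore depend on the annotation, which was not tested.

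In *FRAIL1* muscles the order of the group means was the same, but 2 of the neighboring pairs overlapped. *Igfbp5* was above *Igfbp7* in 5 of 6 *FRAIL1* muscles and *Igfbp6* above *Igfbp4* in 5 of 6, and in both cases the exception was muscle 5. The other neighbors kept separate ranges. The 6 genes together summed to 240.4 ± 19.3 CPM per kb in Control and 257 ± 36.5 CPM per kb in *FRAIL1* muscles. The share of *Igfbp5* in this sum was 58.3% ± 5.65 in Control and 51.8% ± 8.98 in *FRAIL1* muscles, with 35.7% in *FRAIL1* muscle 5. The share of *Igfbp4* was 4.33% ± 0.74 and 6.98% ± 3.61, with 14.1% in *FRAIL1* muscle 5. These shares have no test and use the same exon lengths, and their spread within the *FRAIL1* group came largely from 1 muscle.

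**Figure D1:**
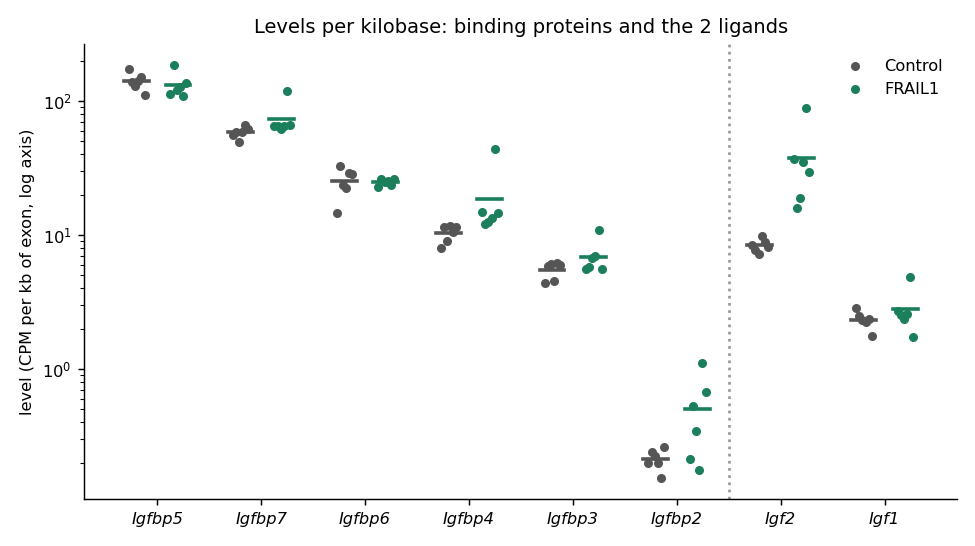
Level of each IGF-binding protein gene per muscle in CPM per kb of exon (log axis), with the ligands *Igf2* and *Igf1* to the right of the dotted line, points for the 6 Control and 6 *FRAIL1* muscles and bars for group means. *Igfbp5* is the highest gene in every muscle except *FRAIL1* muscle 5, where *Igfbp7* is, and *Igfbp2* is the lowest in all 12.

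The question of the comparison is which mRNAs differ between muscles with and without the *FRAIL1* plasmid. None of the 6 members passed the threshold of 0.05 on adjusted p-values of the edgeR quasi-likelihood test (0 of 6), beside 6.28% of all genes tested. At an unadjusted p below 0.05, 3 of 6 members passed (*Igfbp2*, *Igfbp4* and *Igfbp7*, all with the higher mean in *FRAIL1* muscles), beside 27.7% of all genes. DESeq2 called 1 member (*Igfbp2*), beside 14.6% of all genes, and DESeq2 with the replicate number as a block called 2 (*Igfbp2* and *Igfbp7*), beside 18.9%. The group mean was higher in *FRAIL1* muscles for 4 members, and the median log2 fold change over the 6 members was 0.33, beside 0.01 over all genes. Without *FRAIL1* muscle 5 the median was 0.15 over the members, beside 0.00 over all genes.

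*Igfbp4* gave the clearest separation between the groups. Its level was 35.5, 50.3, 40.1, 51.1, 46.3 and 50.3 CPM in Control muscles 1 to 6 and 65.2, 52.8, 55.6, 59.8, 192 and 64.8 CPM in *FRAIL1* muscles 1 to 6. The groups did not overlap, since the lowest *FRAIL1* value exceeded the highest Control value, which was so for 3.12% of all genes, and muscle 5 was far above the next. The group means were 45.6 ± 6.44 and 81.8 ± 54.4 CPM (SD, n = 6). The log2 fold change was 0.84 (SE 0.31) and did not pass the threshold (edgeR quasi-likelihood test, adjusted p = 0.109, range over the 24 alternatives 0.026 to 0.183). Without *FRAIL1* muscle 5, the mean of the other 5 was 59.7 CPM and the log2 fold change was smaller but its error much smaller, at 0.39 (SE 0.09, edgeR adjusted p = 0.026). In that comparison *Igfbp4* was the 1 member called, beside 6.22% of all genes called and 3.69% called higher. Leaving out Control muscle 5 as well gave a log2 fold change of 0.39 (SE 0.10, edgeR adjusted p = 0.0475), and the same muscles with the replicate number as a block gave 0.40 with an adjusted p of 0.0585, short of the threshold.

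*Igfbp7* had a higher mean in *FRAIL1* muscles, by less than *Igfbp4*. The Control muscles had 67.3, 70.9, 59.5, 71.3, 79.7 and 75.2 CPM, and the *FRAIL1* muscles 79.5, 78.4, 74.6, 78.6, 144 and 80.7 CPM. The groups overlapped, since 2 Control muscles, 5 and 6, reached into the *FRAIL1* range, while muscle 5 was again far above the other *FRAIL1* muscles. *Igfbp7* was higher in the *FRAIL1* muscle of the same number in 6 of 6 pairs, as was *Igfbp4*, a pattern that 11.5% of all genes showed. Its log2 fold change was 0.34 (SE 0.15, edgeR adjusted p = 0.162, range over the 24 alternatives 0.0186 to 0.277) and was 0.15 (SE 0.06, adjusted p = 0.192) without *FRAIL1* muscle 5, where the *FRAIL1* mean was 78.3 CPM. With the replicate number as a block it was 0.30 (SE 0.09) and its edgeR adjusted p of 0.0514 missed the threshold narrowly. The study itself reports *Igfbp7* among the senescence-associated molecules that increased with *FRAIL1*.

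*Igfbp3* had a higher mean in *FRAIL1* muscles, with 1 muscle far above the rest. Its level was 13.8, 18.4, 19.0, 14.2, 19.5 and 18.8 CPM in Control and 17.4, 18.0, 21.1, 21.7, 34.2 and 17.6 CPM in *FRAIL1* muscles. Apart from muscle 5 the groups overlapped in part, with Control muscles 1 and 4 below every *FRAIL1* muscle and *FRAIL1* muscles 3 and 4 above every Control muscle. For *Igfbp3* the log2 fold change of 0.33 (SE 0.16) did not pass the threshold (edgeR adjusted p = 0.212), and it was 0.15 (SE 0.10, adjusted p = 0.428) without *FRAIL1* muscle 5.

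*Igfbp2* was near the lower end of detection, with 12 to 110 counts per muscle. It had 0.366, 0.446, 0.414, 0.365, 0.282 and 0.483 CPM in Control and 0.391, 0.982, 0.634, 0.324, 2.06 and 1.24 CPM in *FRAIL1* muscles. The level exceeded all Control muscles in *FRAIL1* muscles 2, 3, 5 and 6 but not in muscles 1 and 4. Within the *FRAIL1* group, though not within Control, *Igfbp2* had the widest relative spread of the family. A log2 fold change of 1.25 was the largest of the 6 members (SE 0.40), but it missed the threshold (edgeR adjusted p = 0.0662, range over the 24 alternatives 0.0233 to 0.239) and was 0.86 (SE 0.34, adjusted p = 0.149) without *FRAIL1* muscle 5.

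*Igfbp5* had the lower mean in *FRAIL1* muscles, 797 ± 172 CPM beside 845 ± 130 CPM in Control (SD, n = 6). Its level was 1051, 838, 774, 844, 902 and 662 CPM in Control and 675, 1125, 731, 767, 661 and 823 CPM in *FRAIL1* muscles. The ranges were almost the same, *FRAIL1* muscle 5 was the lowest of all 12 by a narrow margin, and the highest muscle was *FRAIL1* muscle 2. The log2 fold change was -0.09 (SE 0.13, edgeR adjusted p = 0.712), with a 95% interval of -0.37 to 0.20. Without *FRAIL1* muscle 5 it was -0.04 (edgeR adjusted p = 0.913).

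*Igfbp6* had group means of 28.0 ± 7.08 and 27.7 ± 1.53 CPM (SD, n = 6). The Control muscles ranged from 16.4 to 36.4 CPM and enclosed the *FRAIL1* muscles, which lay between 25.4 and 29.3 CPM. Muscle 5, at 26.5 CPM, was unremarkable for this gene. The log2 fold change was -0.02 (SE 0.15, edgeR adjusted p = 0.959, 95% interval -0.33 to 0.30), and its sign depended on the fit. It was -0.005 without *FRAIL1* muscle 5 (edgeR adjusted p = 0.991).

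**Figure D2:**
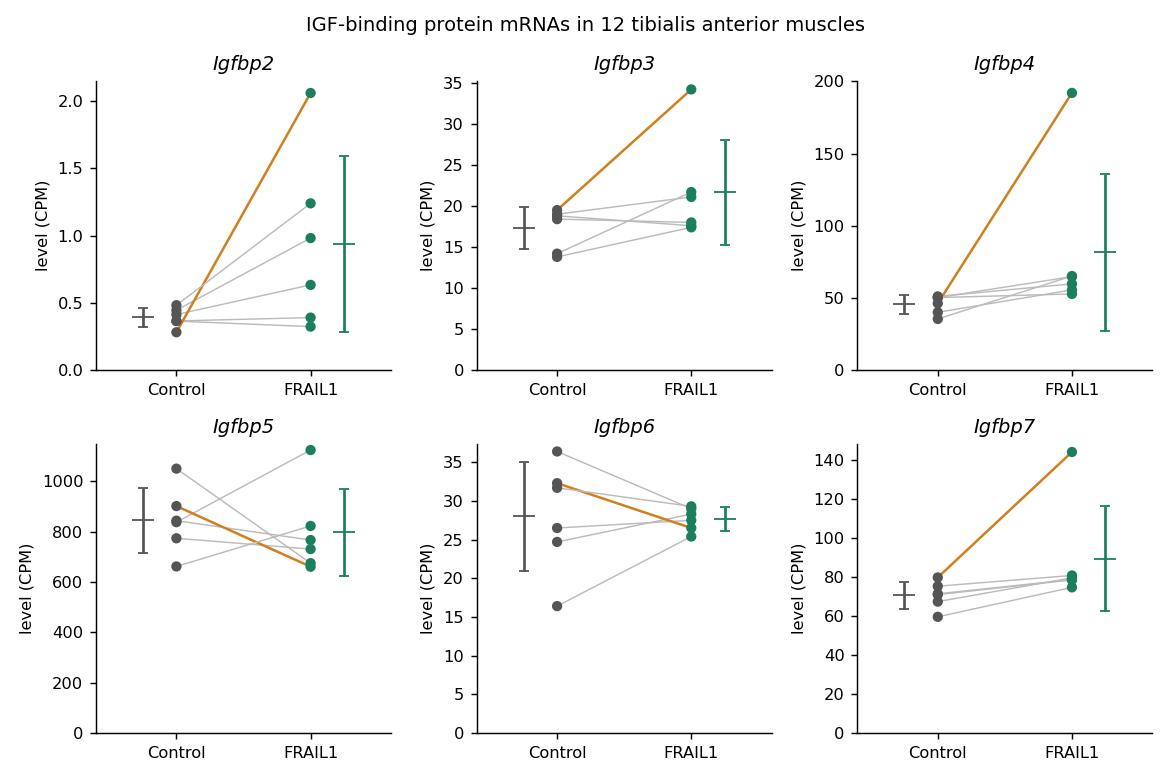
Level of the 6 genes in each muscle in CPM (linear axis from 0), with thin lines joining muscles of the same number, number 5 in orange and group means ± SD at the side. For *Igfbp4* all 6 *FRAIL1* muscles, 52.8 to 192 CPM, sit above the Control muscles, and *FRAIL1* muscle 5 is the highest point for *Igfbp2*, *Igfbp3*, *Igfbp4* and *Igfbp7*.

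**Figure D3:**
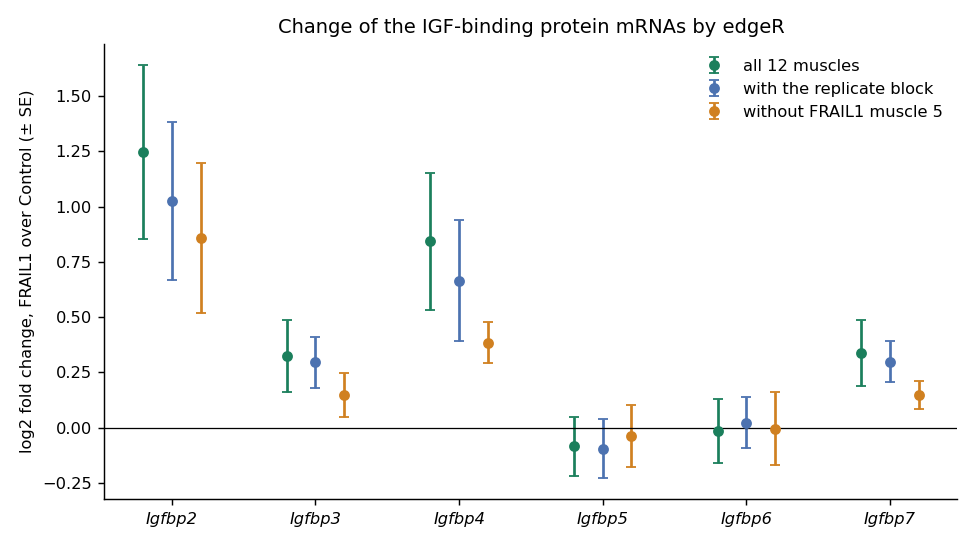
Log2 fold change of *FRAIL1* over Control ± SE for each gene with all 12 muscles, with the replicate number as a block, and without *FRAIL1* muscle 5. Without that muscle the value falls from 0.84 to 0.39 for *Igfbp4* and from 1.25 to 0.86 for *Igfbp2*, while *Igfbp5* and *Igfbp6* stay near 0.

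*FRAIL1* muscle 5 was the highest of all 12 muscles for 4 of the 6 members, beside 23.3% of all genes tested. Within the pair of muscles numbered 5, the log2 ratio of *FRAIL1* to Control was 2.87 for *Igfbp2*, 2.06 for *Igfbp4*, 0.85 for *Igfbp7* and 0.81 for *Igfbp3*. It was -0.45 for *Igfbp5* and -0.29 for *Igfbp6*. The muscle therefore combined the highest levels of 4 members with the lowest level of *Igfbp5*. In the other 5 pairs the log2 ratio of *Igfbp4* was between 0.07 and 0.88 and that of *Igfbp7* between 0.10 and 0.32.

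Among the members, *Igfbp4* and *Igfbp7* varied most alike across the 12 muscles (Pearson r of log2 CPM 0.957, and 0.85 without both muscles numbered 5). The correlation of *Igfbp3* with *Igfbp4* was 0.83 over 12 muscles and 0.439 without both muscles numbered 5, and that of *Igfbp2* with *Igfbp4* was 0.753 and 0.369, so these rested largely on that pair. The correlation of *Igfbp5* with *Igfbp4* was negative, with r of -0.515 and -0.43. These values describe 12 points that share 2 groups, 6 mice and the scaling.

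The genes whose levels were most like each member were searched among 12852 other genes with a mean of at least 1 CPM. *Igfbp4* was most like *Cdkn1c*, an imprinted inhibitor of cyclin-dependent kinases (r 0.99, and 0.95 without both muscles numbered 5). It was followed by *Mfap2*, a protein of elastic microfibrils (0.985 and 0.969), and *Fstl1*, a secreted glycoprotein (0.982 and 0.928). *Cdkn1c* was also the gene most like *Igfbp7* (0.957 and 0.865), ahead of *Mtch1* (0.951 and 0.779) and *Sox4* (0.949 and 0.893). The nearest to *Igfbp5* was *Hdac4*, a histone deacetylase of muscle that responds to nerve activity (0.899 and 0.878). *Igfbp6* was most like *Cxcl14*, a chemokine (0.925 and 0.927), and *Tnxb*, a matrix protein of fibroblasts (0.906 and 0.925). *Igfbp2* was most like *Tcf12* (0.935 and 0.872) and *Igfbp3* most like *Parva* (0.927 and 0.814). The leading genes thus differed between members, except that *Cdkn1c* headed the lists of both *Igfbp4* and *Igfbp7*.

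Of the genes that act with the binding proteins, 27 of 30 listed passed the filter for low counts, and 8 passed the threshold, 6 higher and 2 lower in *FRAIL1* muscles, beside 4.43% of all genes called higher and 1.85% called lower. Their median log2 fold change was 0.25, beside 0.01 over all genes. With the replicate number as a block 7 were higher and 4 lower, beside 7.48% and 6.62% of all genes, and without *FRAIL1* muscle 5, 5 were higher and 1 lower, beside 3.69% and 2.52%.

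Of the 6 ligand and receptor genes, *Igf2* and *Igf2r* rose. *Igf2*, the IGF of fetal growth and of differentiating muscle, had 41.4 to 56.1 CPM in Control and 90.5 to 509 CPM in *FRAIL1* muscles. All *FRAIL1* muscles were higher, and muscle 5 was the highest. The log2 fold change was 2.17 (SE 0.37, edgeR adjusted p = 0.0118), and it passed the threshold under 24 of 24 alternatives (adjusted p = 0.0169 with the replicate block). It was 1.70 without *FRAIL1* muscle 5 (SE 0.22, edgeR adjusted p = 0.00222). Other annotated genes overlap 64.55% of the exonic bases of *Igf2*, so part of its counts may belong to them. *Igf2r*, the receptor that takes up IGF2 for degradation, rose from 82.4 ± 1.92 to 98.1 ± 9.85 CPM (log2 fold change 0.25, SE 0.06, edgeR adjusted p = 0.0356, and 0.038 without *FRAIL1* muscle 5). *Igf1* was at 23.1 ± 3.42 and 27.6 ± 10.6 CPM and did not pass (edgeR adjusted p = 0.443), with 48.1 CPM in *FRAIL1* muscle 5 and a log2 fold change of 0.02 without it. Nor did *Igf1r* (adjusted p = 0.388), *Insr* (0.452) or *Igfals* (0.235), the serum partner of *Igfbp3*, in the same edgeR test.

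As a level per kb, *Igf2* was 3.49% ± 0.377 of the summed level of the 6 binding proteins in Control and 14.3% ± 8.25 in *FRAIL1* muscles (SD, n = 6). The ranges, 3.09 to 4.12% and 5.33 to 28.9%, did not overlap. *Igf1* was at 0.969% ± 0.106 and 1.07% ± 0.308 of that sum. The groups overlapped for *Igf1*, and neither ratio was tested.

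Of the 6 tested genes of proteases and their inhibitors, 1 passed. *Adam12*, a metalloprotease that cuts *Igfbp3* and *Igfbp5* proteins and is known from regenerating muscle, rose from 1.87 ± 0.384 to 4.59 ± 2.6 CPM (log2 fold change 1.29, SE 0.28, edgeR adjusted p = 0.0205), and the groups did not overlap. Without *FRAIL1* muscle 5 its log2 fold change was 0.92 (SE 0.16, edgeR adjusted p = 0.0037). *Stc2*, an inhibitor of the *Igfbp4* protease PAPP-A, was at 2.2 ± 0.481 and 3.21 ± 0.624 CPM. Its adjusted p was 0.0606, and 0.0203 with the replicate block (both edgeR). *Htra1*, a secreted serine protease, was at 40.9 ± 4.37 and 35.5 ± 3.07 CPM, with edgeR adjusted p-values of 0.107 and, with the block, 0.0339. *Pappa* itself was low, at 0.256 ± 0.0912 and 0.334 ± 0.2 CPM, and did not pass (edgeR adjusted p = 0.554).

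Other genes with an IGFBP domain gave 2 calls among 10 tested, both lower in *FRAIL1* muscles. *Kazald1*, an IGFBP-related secreted protein, fell from 5.69 ± 0.679 to 4.13 ± 0.361 CPM with no overlap, as 1.77% of all genes had toward lower *FRAIL1* levels (log2 fold change -0.46, SE 0.10, edgeR adjusted p = 0.022, and 0.0239 without *FRAIL1* muscle 5). *Htra4*, a serine protease, fell from 2.06 ± 0.441 to 1.04 ± 0.44 CPM (log2 fold change -0.98, SE 0.26, edgeR adjusted p = 0.0381), and another gene overlaps 32.95% of its exonic bases. The call of *Htra4* was lost without *FRAIL1* muscle 5 (log2 fold change -0.90, edgeR adjusted p = 0.0524). *Crim1*, a membrane protein with an IGFBP-like domain, was at 37.9 ± 6.1 and 29.3 ± 7.08 CPM, with an edgeR adjusted p of 0.15 that became 0.0054 with the replicate block. *Igfbp1*, the insulin-regulated binding protein of liver, had 0 counts in all 12 muscles, which allows up to 0.0669 CPM in a muscle (3 counts).

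Of the 5 cell surface partners, 3 rose. *Lrp1*, an endocytic receptor, rose from 110.4 ± 7.63 to 146 ± 26.6 CPM (log2 fold change 0.40, SE 0.10, edgeR adjusted p = 0.0348), a call that was lost without *FRAIL1* muscle 5 (0.35, adjusted p = 0.0544). *Itga5* and *Itgb1*, which form the fibronectin receptor, rose with log2 fold changes of 0.50 (SE 0.14, edgeR adjusted p = 0.0469) and 0.26 (SE 0.07, edgeR adjusted p = 0.0397), and for both the groups did not overlap. Without *FRAIL1* muscle 5 they were 0.36 and 0.20 (edgeR adjusted p = 0.0326 and 0.0302). *Cd93*, an endothelial receptor for *Igfbp7* protein, was at 55.7 ± 5.46 and 61.2 ± 12.7 CPM and did not pass (edgeR adjusted p = 0.458). *Igf2r*, *Htra4*, *Lrp1*, *Itga5* and *Itgb1* passed under 14 or 15 of 24 alternatives, and *Adam12* and *Kazald1* under 23.

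**Figure D4:**
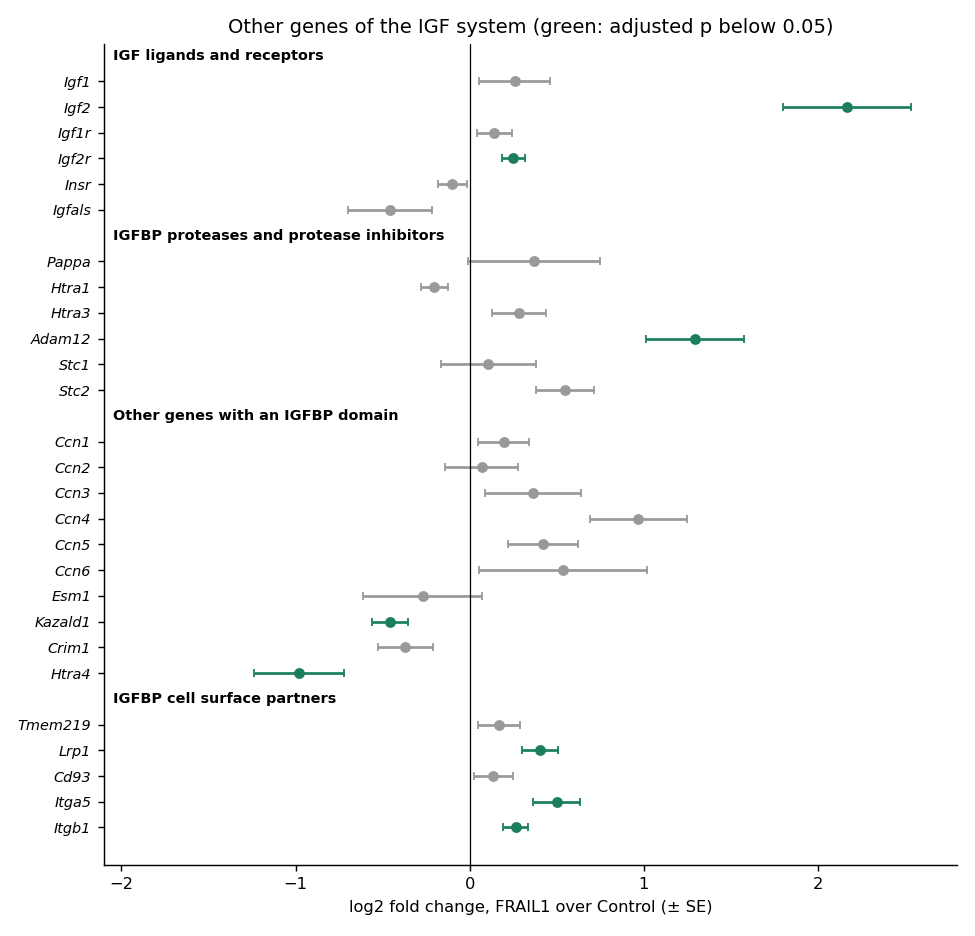
Log2 fold change of *FRAIL1* over Control ± SE for the tested genes of the IGF system other than the 6 binding proteins, by role, with adjusted p below 0.05 (edgeR) in green. *Igf2* at 2.17 and *Adam12* at 1.29 are the farthest to the right among the green points, and *Htra4* and *Kazald1* are on the left.

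Whole muscle contains several cell types, and a change in the number of cells cannot be told apart from a change in mRNA per cell. The summed level of 10 fibroblast markers was 1278 to 2446 CPM in Control and 2522 to 6342 CPM in *FRAIL1* muscles, with the maximum in *FRAIL1* muscle 5 and 3181 CPM in the next. Most of this sum came from the collagens *Col1a1* (mean 449 CPM in Control and 927 CPM in *FRAIL1* muscles), *Col1a2* (426 and 752 CPM) and *Col3a1* (731 and 1293 CPM), while *Dcn* (184 and 186 CPM) and *Pi16* (19.5 and 17.7 CPM) had close means. Of the 10 markers, 1 (*Col1a2*) passed the threshold, and none did with the replicate block. The sum of 10 markers of denervated or regenerating fibers, among them *Chrng* and *Myh3*, was 229.8 to 304 CPM in Control and 475 to 1777 CPM in *FRAIL1* muscles, again with the maximum in *FRAIL1* muscle 5, and 7 of the 10 were called higher. Both sums, and that of the satellite cell markers, were higher in all *FRAIL1* muscles than in any Control muscle, with muscle 5 at the top. Among single genes, 3.12% were so, *Igfbp4* among them. The denervated or regenerating sum came mostly from *Myh3* (means 50.9 and 228 CPM) and *Myh8* (98.3 and 353 CPM). In that list *Gadd45a* was higher in 3 of 6 pairs. The satellite cell sums met closely, at 54.5 and 55.0 CPM, and no marker of that list separated alone. The sum of 12 endothelial markers such as *Pecam1* and *Cdh5* lay lower in *FRAIL1* muscles, at 584 to 688 CPM in Control and 484 to 600 CPM in *FRAIL1* muscles. It was lower in 6 of 6 pairs, with 2 of 12 markers called lower and 1 (*Plvap*) with the higher mean. The sum of 10 macrophage markers was 246 to 384 and 311 to 791 CPM, with 632 CPM in *FRAIL1* muscle 5, and it was higher in 6 of 6 pairs. Of these 10 markers, 0 passed the edgeR threshold, 7 had an unadjusted p below 0.05, and 6 were called with the replicate block. That of 10 fiber markers was 173351 to 202466 and 131605 to 184822 CPM, lowest in *FRAIL1* muscle 5 and higher in 0 of 6 pairs, with 1 marker (*Ckm*) called lower. No marker was at 0 in any of these lists. The part of these cell types in the levels of the binding proteins was not tested.

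Smaller sums came from the remaining lists. The summed CPM of 7 mural cell markers was 279.5 to 416 in Control and 293 to 353 in *FRAIL1* muscles, and that of 9 Schwann cell markers was 69.6 to 131 and 55.1 to 90.7. Markers of satellite cells, 6 genes with *Pax7* among them, summed to 47.0 to 54.5 and 55.0 to 73.6 CPM, with the maximum in *FRAIL1* muscle 5, and 7 tenocyte markers, 2 of them called higher, to 147 to 317 and 249 to 506 CPM. Of the 6 pairs, the *FRAIL1* muscle had the higher sum in 3 for mural, 1 for Schwann and 6 for satellite and tenocyte markers. None of the mural, Schwann or satellite cell markers passed the threshold of the edgeR test, while 3 of each list had an unadjusted p below 0.05 and 1, 2 and 2, respectively, passed with the replicate block.

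**Figure D5:**
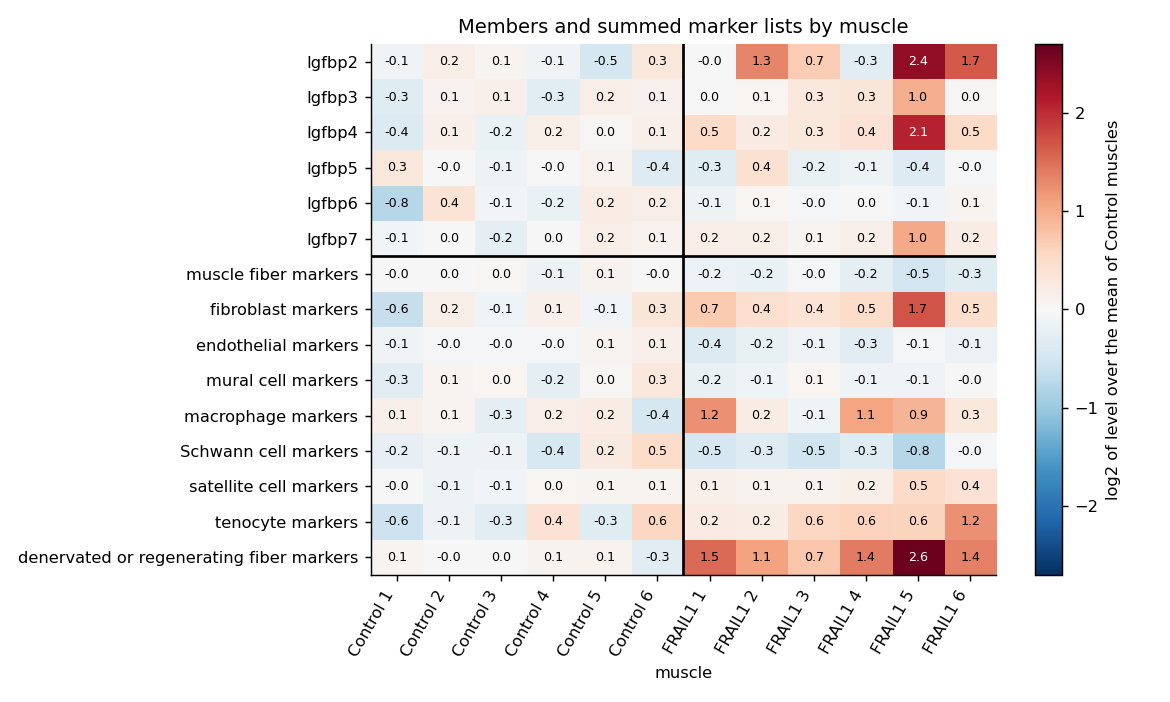
Heat map of the 6 genes and the summed marker lists in each muscle, as log2 of the level over the Control mean (colour scale). *FRAIL1* muscle 5 stands out with high *Igfbp2*, *Igfbp4*, fibroblast and denervated or regenerating fiber values, while *Igfbp5* and *Igfbp6* show no such pattern.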

How the data were processed

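According to the methods of the study, RNA of whole TA muscle was sequenced as paired-end reads, cleaned by Trimmomatic, aligned to mm10 by STAR 2.7.8a and assigned to genes with featureCounts 2.0.1 (versions from the submitters' processing notes). The deposited values are raw counts per gene made by the authors, without normalization. Reads mapping equally well to several genes are not in such counts, and the strand setting is not given in the sources used here. Of 27179 NCBI Gene IDs, 25275 were matched to a symbol, and the rest held 0.28% of the counts. Total counts were 44848322 to 60527385 per muscle, and the error given is the spread between muscles, which includes counting error.

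Counts were filtered with filterByExpr, scaled with TMM and compared in edgeR 4.0.16 (R 4.3.3) by its quasi-likelihood test with robust dispersions (6 against 6 muscles, two-sided, threshold 0.05 on Benjamini-Hochberg adjusted p over 15502 genes). The script was tested on simulated data. CPM per kb used the summed exon length of each gene in GENCODE M21. DESeq2 1.42.0, voom of limma 3.58.1, other filters and scalings, a replicate block and leaving out each muscle were the alternatives. BLAST 2.17.0 searched for near copies of the members. No library was a copy of another of its group, and libraries of different groups were not compared in this way. The methods of the study name DESeq2 and state no block, and the replicate number was an alternative here. Each mouse gave 1 muscle to each group, and muscles of the same number were treated as those of 1 mouse, although the labels do not state it for each number. Deviations from the group means correlated by 0.0547 to 0.282 within numbers (mean 0.2, and -0.04 between different numbers), lowest for number 5.

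The text names all 6 members, each pathway gene past the threshold with others by level and role, the genes most correlated with each member and some defining markers. Members and lists were chosen with earlier results of these data known.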

Additional observations from a re-analysis of the deposited data

Results flagged for a closer look

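In each group of 6 muscles, the highest or lowest value was compared with the rest for 42 sets of values, and 9 had a muscle whose gap to its neighbor exceeded 0.625 of the whole range. For independent values with a normal distribution, chance gives about 1 in 20. The CPM here were not log-transformed, and the genes include those called in these same data, so 9 of 42 is not a test against chance. Of the 12 sets for the binding proteins, 4 were of this kind. *FRAIL1* muscle 5 was high for *Igfbp3* (34.2 CPM, others 17.4 to 21.7), *Igfbp4* (192 CPM, others 52.8 to 65.2) and *Igfbp7* (144 CPM, others 74.6 to 80.7). For *Igfbp5*, the muscle that stood apart was *FRAIL1* muscle 2 (1125 CPM, others 661 to 823).

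Among the other genes of the IGF system, *FRAIL1* muscle 5 was high for *Igf2* (509 CPM, others 90.5 to 209.8), *Adam12* (9.8 CPM, others 3.02 to 4.54), *Itgb1* (387 CPM, others 296 to 323), *Igf1* (48.1 CPM, others 17.0 to 26.8) and *Ccn4* (6.24 CPM, others 2.27 to 3.4). All 8 high values of this muscle came from 1 library and are not independent of each other.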

How the results depend on the processing

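Each result was recomputed under 22 alternatives and under 2 more, without both muscles numbered 5 and the same with the replicate block, that were chosen after seeing the data. The count of genes past the threshold was 974 and became 2211 with DESeq2, 2875 with DESeq2 and the block, 1756 with voom, 2186 with the replicate block, 2305 without both muscles numbered 5 with the block, and 364 to 2110 without 1 muscle, lowest without *FRAIL1* muscle 1 and highest without *FRAIL1* muscle 3. It moved by over 1.5 times without each of the other muscles except *FRAIL1* muscle 5. The count of members was 0, and 1 with DESeq2, 2 with DESeq2 and the block, 1 without both muscles numbered 5 (also 1 with the block) and 0 to 1 without 1 muscle. The count of pathway genes was 8, and 13 with DESeq2 and the block, 4 without both muscles numbered 5 and 2 to 11 without 1 muscle, lowest without Control muscle 3.

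Log2 fold changes passed the threshold for *Igfbp2* with DESeq2 (1.245), with DESeq2 and the block (0.987) and without *FRAIL1* muscle 3 or 4 (range without 1 muscle 0.856 to 1.422), for *Igfbp4* without *FRAIL1* muscle 5 (range 0.385 to 0.938) or both muscles numbered 5 (0.388), and for *Igfbp7* with DESeq2 and the block (0.292) and without both muscles numbered 5 with the block (0.187). *Igfbp6*, never past the threshold, changed sign with DESeq2 and the block (0.017), voom (0.02), the replicate block (0.023), without both muscles numbered 5 (0.039, and 0.08 with the block) and without 1 muscle (-0.132 to 0.073). *Igfbp3* and *Igfbp5* kept their sign and stayed short of the threshold in all 24. *Igf2r*, *Itga5* and *Itgb1* passed without *FRAIL1* muscle 2, 3, 5 or 6 but not without any other muscle. *Htra4* did so without Control muscle 3 or *FRAIL1* muscle 1, 2 or 3, and *Lrp1* without Control muscle 2 or *FRAIL1* muscle 2, 3 or 6. *Adam12* and *Kazald1* missed the threshold without Control muscle 3. The cause of these changes was not tested. In edgeR with all 12 muscles, pairing by the replicate block changed no call of a member and, among the pathway genes named, added *Stc2*, *Htra1* and *Crim1*. In DESeq2 with all 12 muscles, the block added *Igfbp7*. In edgeR without both muscles numbered 5, the block added *Igfbp7* and removed *Igfbp4* (edgeR adjusted p = 0.0585).

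*Igfbp2* rests on 12 to 110 counts per muscle, and its share of counting error was not separated from the spread between muscles. The *FRAIL1* means of *Igfbp4* and *Igfbp7* were 81.8 and 89.2 CPM, and 59.7 and 78.3 CPM without *FRAIL1* muscle 5.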

Other observations

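The CCN genes, which encode matrix-associated proteins with an IGFBP domain, gave edgeR adjusted p-values of 0.0521 (*Ccn4*) to 0.866 (*Ccn2*) in the 6 tested. *Ccn1* was the most abundant as CPM, at 30.6 ± 6.54 in Control and 35.0 ± 6.07 in *FRAIL1* muscles (SD, n = 6). *Ccn4* had the largest log2 fold change of these genes, 0.97 (SE 0.28), from 1.75 ± 0.635 to 3.43 ± 1.43 CPM, and passed under 5 of 24 alternatives. Its adjusted p was 0.00934 with DESeq2, 0.112 with edgeR and the replicate block, and 0.0761 (log2 fold change 0.71) with edgeR without *FRAIL1* muscle 5. *Igfbpl1* did not pass the filter for low counts and was not tested in the main comparison.

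Further elements were also searched on both strands. The promoter window shown for *Igfbp5* held GGAATG, the element of TEAD factors, on the opposite strand (cattcc as printed), 233 bases before the start. GGAATG was in 12.6% of all windows. GGAATG was in no other member's window. TGTTTAC, a forkhead element, was in no member's window and in 3.17% of all windows.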
